A study of Danio rerio with 10 samples.

Results

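The genes described here encode voltage-gated and ligand-gated ion channels and their accessory subunits, chosen by symbol from a table of gene counts of whole zebrafish embryos. Symbols beginning with the stems of the sodium (scn), calcium (cacn), potassium (kcn), TRP (trp), CLC chloride (clcn), glutamate (gria, grik, grin), GABA-A and glycine (gabr, glr) and ATP (p2rx) channel genes were taken, which gave 155 of the 14650 genes in the table. No symbol of the hyperpolarisation-gated HCN family was among them. Both trpc4apa and trpc4apb match by spelling, although they encode TRPC4-associated proteins, which are not channels. They form a class of their own below, but stay in the counts over all channel genes and duplicate pairs unless stated. The samples were 5 libraries of tpcn2 mutant embryos, labelled as a TPC2 mutant fish line, and 5 libraries of wild-type ABTU embryos. All embryos were at 17 to 18 somites and had been kept at 28 °C. The sources used here do not give the strain background of the mutant line, its allele, or the number of embryos or clutches behind a library. Line and genotype therefore cannot be told apart, and p-values measure the spread between these libraries.

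Voltage-gated channels are built around a pore-forming alpha subunit that opens when the membrane depolarises. Sodium channels start action potentials, calcium channels couple them to contraction and transmitter release, and potassium channels end them or hold the resting potential. Ligand-gated channels open on binding a transmitter: glutamate receptors pass cations and excite, GABA-A and glycine receptors pass chloride, and P2X receptors open to extracellular ATP. TRP channels are cation channels opened by chemical, thermal, osmotic or intracellular signals. Many of these genes exist in zebrafish as a pair of copies (a and b) kept from a whole-genome duplication. At the segmentation stage studied here the first spinal neurons, among them the Rohon-Beard touch neurons, and the first muscle fibres become excitable. Two-pore channel 2, the product of the mutated gene, lets calcium out of lysosomes.

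The libraries held 17890367 to 22498643 reads assigned to genes. Levels are CPM, counts scaled to a common library size after TMM normalisation. These are not divided by gene length, so a CPM set beside that of another gene speaks of the depth of reads behind each, not of transcript levels. The gene that gives the line its name, tpcn2, had 8.84, 10.3, 10.3, 6.72 and 10.2 CPM in mutant libraries, against 47.1, 47.3, 81.1, 60.2 and 54.3 CPM in wild-type libraries. All mutant libraries lay below all wild-type libraries (log2 fold change -2.64, SE 0.186, edgeR adjusted p = 3.19e-08, exact two-sided permutation p = 0.00794, the smallest that 5 against 5 libraries allow). Throughout, log2 fold changes are mutant over wild type, and a gene is called changed when its adjusted p is under 0.05 by edgeR's quasi-likelihood test, adjusted over the 11871 tested genes by the Benjamini-Hochberg method. The SE is that of the difference between the group means of log2 CPM, computed with a prior count of 2 reads added. At low counts this addition damps the spread, so the SE is not the error of the edgeR log2 fold change beside it. Values after ± are SDs over 5 libraries per group.

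Most of the channel genes were covered by few reads. A filter on low counts left 87 of the 155 (56.1%, against 81% of all genes), and the 68 others had 0 to 110 reads over the 10 libraries together, with a median of 41. The potassium channel gene kcna6a had no read. Among the 87, the mean CPM ran between 0.468 and 156 CPM with a median of 2.03 CPM, against a median of 24.9 CPM over all tested genes. In whole embryos, fewer cells of a type and less RNA per cell cannot be told apart, for this and every result that follows. The filter needed about 0.508 CPM in 5 libraries. It was met by both groups separately for 59 of the 87, by mutant libraries alone for 3, by wild-type libraries alone for 15, and by a mixture of libraries for 10. Of the 31 genes called below, scn12aa entered through mutant libraries alone and 5, among them cacna2d2b, cacnb4a, glra3 and kcnh2a, through wild-type libraries alone, so those directions were favoured by the filter. The same holds below for scn12ab and gria3b (through mutant libraries alone) and gria3a (through wild-type libraries alone), which were tested and not called.

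Channel genes were called in both directions, at shares near or below those of all tested genes. Of the 87 tested, 17 (19.5%) were higher in the mutant, where 20.6% of all tested genes were, and 14 (16.1%) were lower, where 21.6% of all tested genes were. Together 35.6% were called, against 42.2% of all tested genes, a comparison not matched for CPM. Changes of at least 2-fold were called higher for 4 of the 87 (scn12aa, cacna1ba, gria2a and clcnk), against 2.54% of all tested genes. They were called lower for 6 of the 87 (glra3, kcnh2a, cacnb4a, p2rx5, trpv6 and cacna2d2b), against 3.14% of all tested genes. Both counts make a larger share of the 87 than of all tested genes. Channel genes also had lower CPM, the filter favoured some of these directions, and the part of either was not tested. The groups did not overlap for 10 tested channel genes with the mutant higher and 10 with the mutant lower, where 13.7% and 15% of all tested genes separated in these directions and 28.7% in either. The median log2 fold change was 0.02 over the 87 channel genes and -0.00 over all tested genes, while the median size of the change, whatever its sign, was 0.46 against 0.22. Of the 59 tested below 5 CPM, 15 were called (25.4%, against 31.1% of all genes at such levels), and of the 28 at 5 CPM or more, 16 were called (57.1%, against 45.2%).

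**Figure D1:**
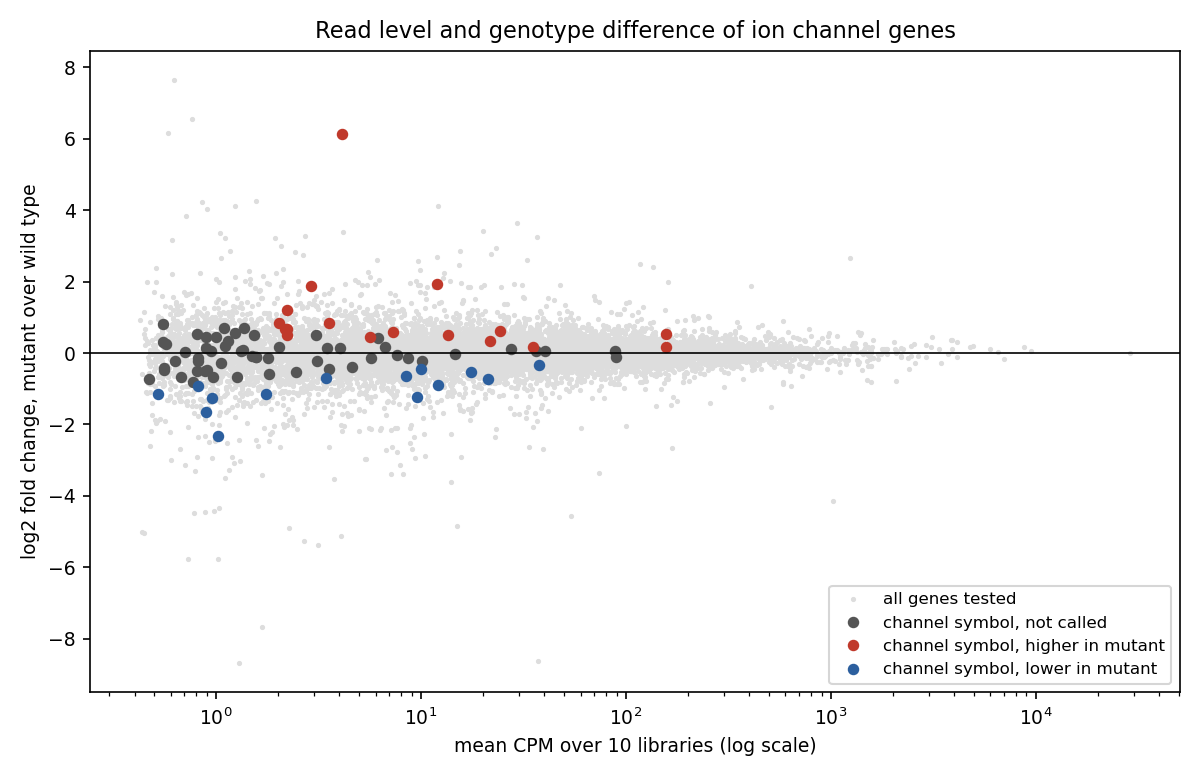
Log2 fold change (mutant over wild type, vertical axis) against mean CPM over 10 libraries (log axis) for the 87 tested channel genes, coloured by direction where called, over all tested genes in pale grey. The widest changes stand at low CPM (scn12aa at 6.14, glra3 at -2.33), whereas trpm4a, near the right end of the coloured points, changed by 0.53.

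Summed over the channel genes without the TRPC4-associated proteins, mutant libraries held 770.0 to 809.7 CPM and wild-type libraries 655 to 781 CPM, and the groups overlapped. trpm4a alone contributed 184 ± 7.71 CPM in mutant and 127 ± 20.8 CPM in wild-type libraries.

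**Figure D2:**
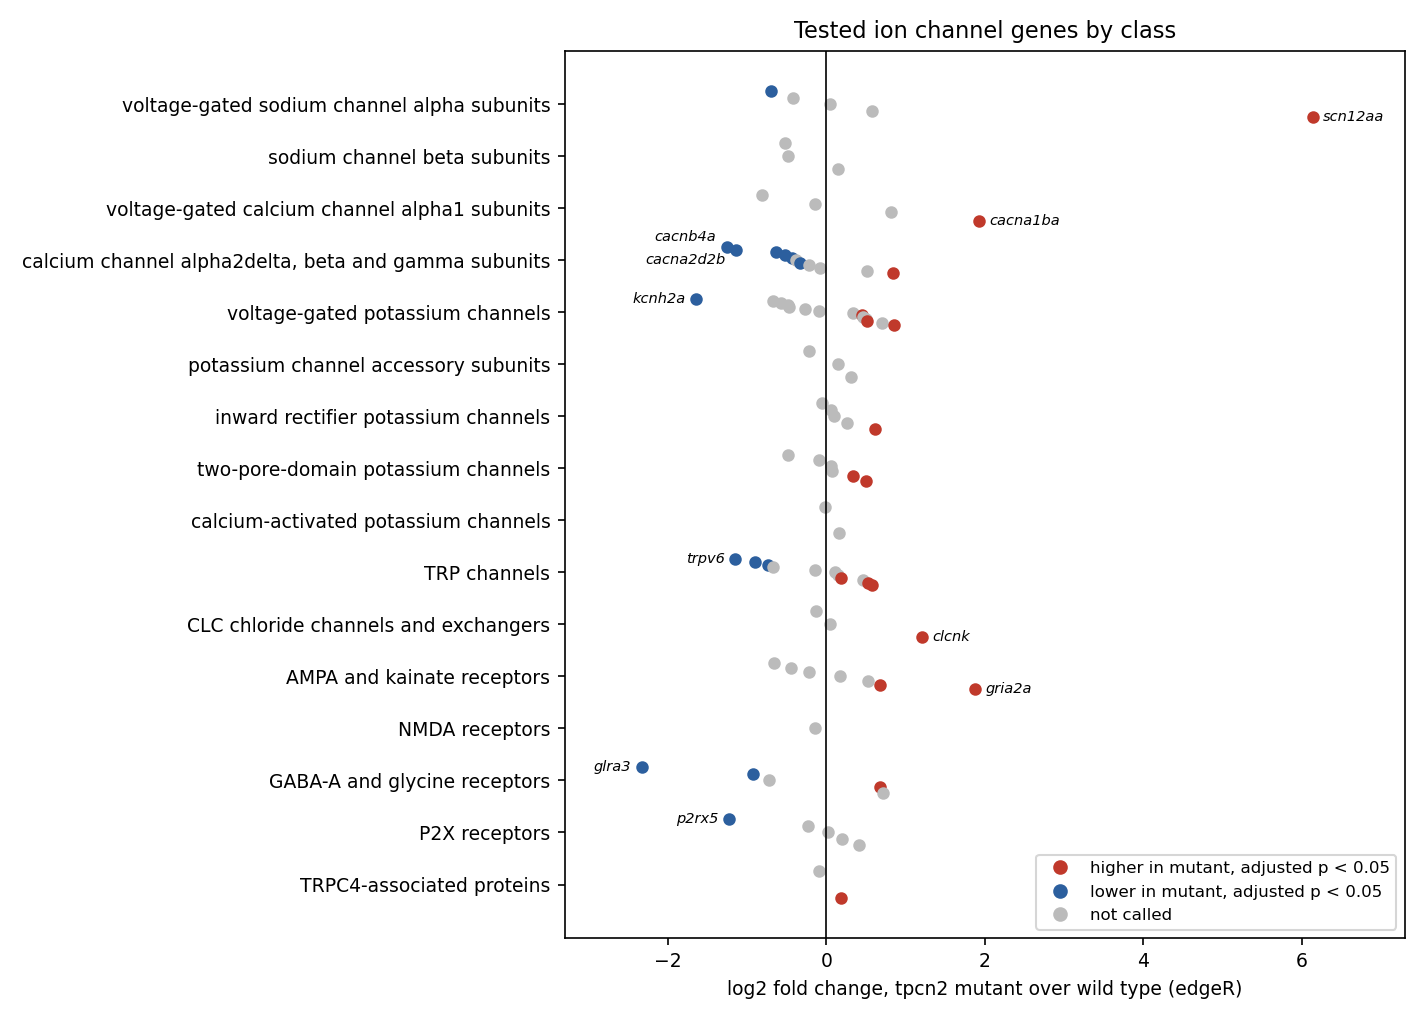
Log2 fold change of each tested channel gene, grouped by class down the page, with called genes coloured by direction and named when their change is at least 2-fold. Calcium channel accessory subunits hold 6 of the 14 lower calls, and potassium channel classes hold 1 of them.

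The pore-forming sodium channel genes (8 in the table, 5 tested) held the largest change of all channel genes. scn12aa encodes a sodium channel alpha subunit. It had 6, 7.9, 8.36, 8.98 and 9.54 CPM in mutant libraries, against 0.266, 0, 0.0535, 0 and 0.223 CPM in wild-type libraries. Mutant libraries thus carried 108 to 195 reads each and wild-type libraries 0 to 5, so that the transcript was close to the limit of detection in wild-type embryos (log2 fold change 6.14, SE 0.418, edgeR adjusted p = 3.95e-08). A fitted fold against so few reads depends on the prior count and gives the order of size only. Its duplicate scn12ab, listed by RefSeq under the name scn5lab, averaged 0.962 ± 0.159 CPM in mutant and 0.935 ± 0.484 CPM in wild-type libraries and was not called (adjusted p = 0.92 by edgeR).

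scn8aa encodes the Nav1.6 channel, which in zebrafish carries much of the sodium current of Rohon-Beard neurons. It was lower in the mutant, with 3, 1.87, 2.29, 2.9 and 3.01 CPM in mutant libraries against 3.46, 4.38, 3.96, 4.03 and 5.27 CPM in wild-type libraries. The groups did not overlap (log2 fold change -0.70, SE 0.163, edgeR adjusted p = 0.00587). The duplicate scn8ab averaged 1.49 ± 0.401 CPM in mutant and 0.992 ± 0.215 CPM in wild-type libraries and was not called (edgeR adjusted p = 0.0903). Because of scn12aa, the summed level of the sodium channel alpha genes was 12.1 to 16.4 CPM in mutant libraries, against 6.22 to 8.06 CPM in wild-type libraries. Sodium channel beta subunits adjust gating and surface expression of the pore. Of the 3 tested, scn4bb had the highest CPM, at 4.21 ± 0.959 CPM in mutant and 3.82 ± 0.691 CPM in wild-type libraries, and neither it (edgeR adjusted p = 0.571) nor scn1ba (0.18) nor scn1bb (0.411) was called.

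**Figure D3:**
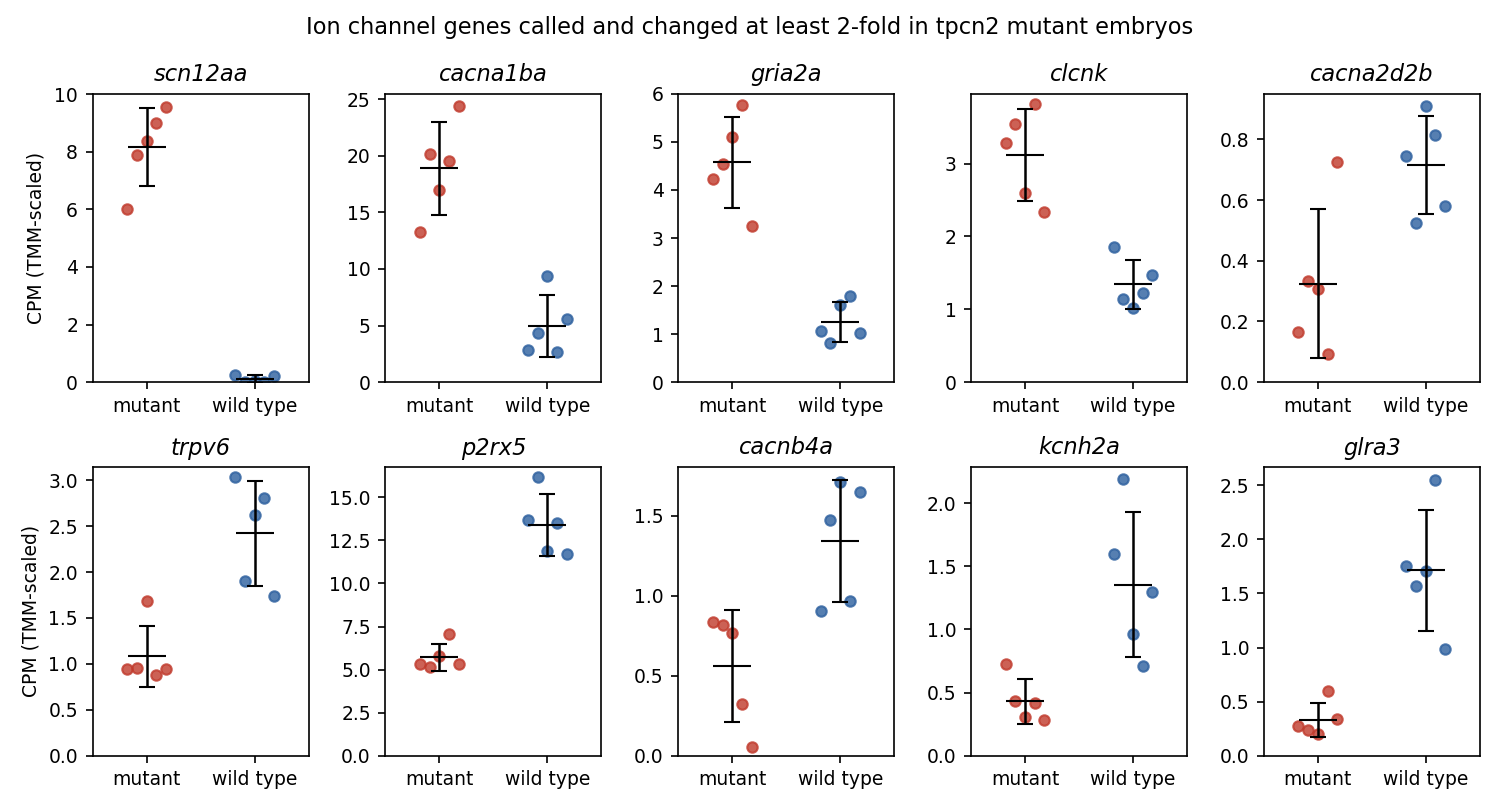
CPM (linear axis from 0, own scale in each panel) in each of the 5 mutant (left) and 5 wild-type libraries (right) for the 10 channel genes called with a change of at least 2-fold; points are libraries, and lines are the mean ± SD. Groups overlap for kcnh2a (0.279 to 0.723 CPM in mutant and 0.714 to 2.19 CPM in wild-type libraries) and for cacna2d2b, and are apart for the other genes drawn.

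Among the calcium channel pores (5 in the table, 4 tested), cacna1ba alone was called, where 42.2% of all tested genes were. It encodes Cav2.2, the N-type channel that admits calcium at presynaptic terminals. Mutant libraries had 13.3, 20.2, 17, 19.5 and 24.4 CPM, against 2.87, 4.38, 9.37, 2.7 and 5.58 CPM in wild-type libraries. The lowest mutant value lay above the highest wild-type value, that of wild-type replicate 3 (log2 fold change 1.92, SE 0.354, edgeR adjusted p = 7.25e-05). The skeletal muscle L-type pore genes cacna1sa and cacna1sb were not called, at 0.702 ± 0.273 against 0.394 ± 0.125 CPM and 5.39 ± 1.21 against 5.96 ± 1.62 CPM (mutant against wild type).

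The accessory calcium channel subunits (alpha2delta, beta and gamma) gave 6 lower calls and 1 higher call among 11 tested, where 21.6% of all tested genes were lower and 20.6% higher. Alpha2delta subunits bring the pore to the membrane. cacna2d1a had 13.2, 16.1, 11.7, 14.8 and 16 CPM in mutant libraries, against 16.2, 26.7, 19.3, 20.1 and 20.8 CPM in wild-type libraries, with the groups just apart (log2 fold change -0.53, SE 0.145, edgeR adjusted p = 0.00448). cacna2d2a was the one accessory gene to rise. It had 4.45, 4.55, 4.95, 4.74 and 4.02 CPM in mutant libraries, against 2.87, 1.76, 2.68, 3.26 and 2.19 CPM in wild-type libraries, without overlap (log2 fold change 0.84, SE 0.158, edgeR adjusted p = 0.00139). Its duplicate cacna2d2b went the other way, with 0.167, 0.335, 0.306, 0.0921 and 0.725 CPM in mutant libraries against 0.744, 0.523, 0.91, 0.816 and 0.581 CPM in wild-type libraries. These groups overlapped through mutant replicate 5, and the call was marginal (log2 fold change -1.14, SE 0.378, edgeR adjusted p = 0.0449). It ended without mutant replicate 1, 2, 3 or 4 or wild-type replicate 1, 3, 4 or 5, with adjusted p-values by edgeR between 0.0558 and 0.102.

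Beta subunits bind the pore inside the cell and are needed for its export to the membrane. cacnb1, the beta subunit of skeletal muscle, averaged 8.44 ± 1.24 CPM in mutant and 11.5 ± 0.816 CPM in wild-type libraries, and the groups (7.34 to 10.1 against 10.7 to 12.9 CPM) did not overlap (log2 fold change -0.44, edgeR adjusted p = 0.00601). The rule for named genes did not reach cacnb1, cacna2d2b, kcnh1a and trpm7, which were added after their values were seen because they were called. cacnb4a had 0.834, 0.814, 0.765, 0.322 and 0.0558 CPM in mutant libraries, against 0.904, 1.47, 1.71, 0.969 and 1.65 CPM in wild-type libraries. All mutant values lay below all wild-type values, the nearest of them closely (log2 fold change -1.26, SE 0.531, edgeR adjusted p = 0.0259). Its call ended without mutant replicate 4 (edgeR adjusted p = 0.066), wild-type replicate 3 (0.0557) or wild-type replicate 5 (0.0602). The gamma subunit of skeletal muscle, cacng1a, averaged 33.4 ± 3.31 CPM in mutant and 42.3 ± 6.85 CPM in wild-type libraries (log2 fold change -0.34, edgeR adjusted p = 0.0175), with overlap between 35.7 and 39 CPM. cacng6a, another gamma subunit, separated fully, at 5.06 to 7.53 CPM in mutant libraries against 8.45 to 11.9 CPM in wild-type libraries (log2 fold change -0.64, SE 0.139, edgeR adjusted p = 0.00175). Summed, the accessory subunits came to 69.2 to 86.2 CPM in mutant libraries and 85.9 to 113 CPM in wild-type libraries, which all but separates the groups. Markers of skeletal muscle moved in the same direction: 5 of 10 were lower in the mutant and the others were not called, their summed level was 2099.9 to 2599.8 CPM in mutant libraries against 2811 to 3366 CPM in wild-type libraries, and none was at 0. The part of muscle content in the fall of the accessory subunits was not tested.

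The potassium channel genes, which repolarise cells or set their resting potential, gave 7 calls among 30 tested pores and accessory subunits, 6 higher in the mutant and 1 lower, where 20.6% and 21.6% of all tested genes were called in these directions. The inward rectifier kcnj13 (Kir7.1), which acts in zebrafish pigment pattern, had 29.1, 31.2, 32.3, 25.5 and 28.2 CPM in mutant libraries, against 14.6, 18.4, 22.4, 23.5 and 16.8 CPM in wild-type libraries. The groups did not overlap (log2 fold change 0.61, SE 0.142, edgeR adjusted p = 0.00103). kcnj13 made up most of the summed CPM of its class, which was 37 to 47.7 CPM in mutant libraries and 25 to 35.3 CPM in wild-type libraries. The tandem copies kcnj1a.1 to kcnj1a.6 may share reads, and the 1 of them that was tested, kcnj1a.1, was not called (edgeR adjusted p = 0.682).

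Among the two-pore-domain potassium channels, which carry background leak currents, kcnk1a (TWIK) had 17.1, 17.1, 17, 13.7 and 14.4 CPM in mutant libraries, against 8.83, 9.37, 15.3, 12.1 and 10.6 CPM in wild-type libraries. The groups overlapped through wild-type replicate 3 (log2 fold change 0.50, SE 0.157, edgeR adjusted p = 0.0104). kcnk5b, a TASK2-type channel that sets fin size in zebrafish, averaged 24 ± 2.89 CPM in mutant and 19.1 ± 2.96 CPM in wild-type libraries (log2 fold change 0.33, edgeR adjusted p = 0.03). That call ended without mutant replicate 1, 2 or 5 or wild-type replicate 3, 4 or 5 (edgeR adjusted p 0.0603 to 0.0769). kcnk6, the member of the class with the highest CPM, stood at 41.2 ± 10.5 CPM in mutant and 39.2 ± 13.6 CPM in wild-type libraries and was not called.

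Of the 14 voltage-gated potassium channel genes tested, 3 were higher in the mutant and 1 lower, where 20.6% and 21.6% of all tested genes were. kcnh2a encodes an ERG channel, the type that repolarises the heart. It had 0.723, 0.431, 0.306, 0.414 and 0.279 CPM in mutant libraries, against 1.6, 2.19, 0.964, 0.714 and 1.3 CPM in wild-type libraries. The highest mutant value lay just above the lowest wild-type value (log2 fold change -1.65, SE 0.325, edgeR adjusted p = 0.00234). kcnh6a, the ERG gene that repolarises the zebrafish heart, averaged 6.51 ± 1.11 CPM in mutant and 4.77 ± 0.835 CPM in wild-type libraries (log2 fold change 0.45, edgeR adjusted p = 0.0357). kcnd3, an A-type channel, averaged 2.61 ± 0.714 CPM in mutant and 1.45 ± 0.552 CPM in wild-type libraries (log2 fold change 0.85, edgeR adjusted p = 0.0286). kcnh1a, an EAG channel, averaged 2.59 ± 0.29 CPM in mutant and 1.82 ± 0.39 CPM in wild-type libraries (log2 fold change 0.51, edgeR adjusted p = 0.0478). Each of these 3 higher calls ended when any of several libraries was left out. The call of kcnh6a ended without mutant replicate 1, 2, 3 or 5 or wild-type replicate 1, 4 or 5 (edgeR adjusted p 0.0526 to 0.0921). That of kcnd3 ended without mutant replicate 4 or 5 or wild-type replicate 3 or 5 (0.0501 to 0.0825, same test). That of kcnh1a ended without mutant replicate 1, 2, 3 or 5 or wild-type replicate 1, 2, 3 or 5 (0.051 to 0.112, same test). Of the heart markers, 4 of 4 tested were lower in the mutant, with a summed level of 41.2 to 62.3 CPM in mutant and 67.7 to 93.6 CPM in wild-type libraries and none at 0. kcnh2a moved with these markers and kcnh6a against them. kcnh2a passed the filter through wild-type libraries alone, which favoured its direction, and the call of kcnh6a was unstable as given above. The part of heart content in either gene was not tested. Neither the large-conductance calcium-activated channel gene kcnma1a (14.7 ± 1.26 CPM in mutant, 14.8 ± 2.56 CPM in wild type) nor the accessory subunit gene kcnip1b (3.65 ± 0.706 CPM in mutant, 3.32 ± 0.212 CPM in wild type) was called.

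Of 11 tested TRP channel genes, 3 were higher in the mutant and 3 lower, shares near the 20.6% and 21.6% of all tested genes. trpm4a, a calcium-activated channel for monovalent cations, had 189, 173, 193, 183 and 182 CPM in mutant libraries, against 111, 108, 160.4, 129.9 and 126 CPM in wild-type libraries. The groups did not overlap (log2 fold change 0.53, SE 0.105, edgeR adjusted p = 2.40e-04). trpv4, an osmotically and thermally gated channel, averaged 8.72 ± 1.89 CPM in mutant and 5.82 ± 1.33 CPM in wild-type libraries with some overlap (log2 fold change 0.58, SE 0.214, edgeR adjusted p = 0.0192). That call ended without mutant replicate 3 (edgeR adjusted p = 0.0571). trpm7, a channel with a kinase domain, differed little, at 37.5 ± 2.18 CPM in mutant and 33.1 ± 1.21 CPM in wild-type libraries (log2 fold change 0.18, edgeR adjusted p = 0.0312), and its call ended without mutant replicate 2 or 5 or wild-type replicate 2 or 3 (edgeR adjusted p 0.0557 to 0.0841).

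The lower TRP genes include sensory and epithelial channels. trpa1a, one of a pair of copies of the irritant receptor, had 9.17, 7.95, 7.95, 7.37 and 9.82 CPM in mutant libraries, against 13.1, 17.8, 16.2, 14.9 and 16.7 CPM in wild-type libraries. Every mutant library lay below every wild-type library (log2 fold change -0.90, SE 0.107, edgeR adjusted p = 2.28e-05). trpm1b, a relative of the channel of retinal bipolar cells and melanocytes in mammals, had 11.5, 15.4, 13.2, 21.3 and 17.7 CPM in mutant libraries, against 25.8, 35.3, 26.6, 22 and 22.9 CPM in wild-type libraries, again apart (log2 fold change -0.74, SE 0.195, edgeR adjusted p = 0.00199). trpv6, which takes up calcium in zebrafish ionocytes, had 0.945, 0.958, 1.68, 0.875 and 0.948 CPM in mutant libraries, against 3.03, 1.9, 2.62, 2.81 and 1.74 CPM in wild-type libraries. The groups stayed apart although mutant replicate 3 came close (log2 fold change -1.15, SE 0.22, edgeR adjusted p = 0.00207). Among ionocyte markers 1 of 5 was lower and the others were not called, with sums of 218 to 247 CPM in mutant and 238 to 264 CPM in wild-type libraries. Among neural crest and pigment markers 2 of 5 were lower and the others were not called, with sums of 116 to 128 CPM in mutant and 130.0 to 145 CPM in wild-type libraries. None of these markers was at 0, and their part in the falls of trpv6 and trpm1b, or beside the rise of kcnj13, was not tested.

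The share of all untested genes whose groups separated was not counted, so the next result cannot be called particular to channel genes. Below the filter, trpv1, the heat- and capsaicin-gated channel gene, was the one untested channel gene whose groups separated. It had 0.167, 0.192, 0, 0.138 and 0.112 CPM in mutant libraries, against 0.425, 0.523, 0.214, 0.714 and 0.313 CPM in wild-type libraries, 12 against 44 reads in all. Of the proteins matched by spelling alone, trpc4apa was higher, at 166 ± 6.45 CPM in mutant and 146 ± 13.2 CPM in wild-type libraries (log2 fold change 0.18, edgeR adjusted p = 0.0253). That call ended without mutant replicate 3 (edgeR adjusted p = 0.0616).

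Of 3 tested CLC genes, clcnk alone was higher, where 20.6% of all tested genes were. It is a plasma membrane chloride channel gene whose mammalian relatives work in the kidney with the subunit barttin. It had 3.28, 3.54, 2.6, 3.82 and 2.34 CPM in mutant libraries, against 1.86, 1.14, 1.02, 1.22 and 1.47 CPM in wild-type libraries, without overlap (log2 fold change 1.21, SE 0.193, edgeR adjusted p = 4.94e-04). clcn7, the chloride and proton exchanger that resides in lysosomes like the product of tpcn2, averaged 90.4 ± 4.61 CPM in mutant and 87.2 ± 11.2 CPM in wild-type libraries and was not called (log2 fold change 0.05, edgeR adjusted p = 0.613).

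AMPA receptors mediate fast excitation by glutamate. Of their 7 tested genes, 2 were higher in the mutant, where 20.6% of all tested genes were, and the other 5 were not called. The kainate receptor gene in the table, grik5, did not pass the filter. gria2a encodes GluA2, the subunit that keeps calcium out of AMPA receptors in mammals. It had 4.22, 4.55, 5.1, 5.76 and 3.24 CPM in mutant libraries, against 1.06, 0.809, 1.61, 1.79 and 1.03 CPM in wild-type libraries. The lowest mutant value was well above the highest wild-type value (log2 fold change 1.87, SE 0.24, edgeR adjusted p = 2.35e-05). gria4b averaged 2.74 ± 0.653 CPM in mutant and 1.7 ± 0.47 CPM in wild-type libraries with overlap (log2 fold change 0.68, SE 0.245, edgeR adjusted p = 0.0328). Its call ended without mutant replicate 2, 3 or 5 or wild-type replicate 1 or 3 (edgeR adjusted p 0.0541 to 0.0973). gria1a, the AMPA gene with the highest CPM, averaged 7.02 ± 0.929 CPM in mutant and 6.25 ± 0.726 CPM in wild-type libraries and was not called (edgeR adjusted p = 0.327). The single NMDA receptor gene tested, grin1a, was at 0.772 ± 0.484 CPM in mutant and 0.859 ± 0.351 CPM in wild-type libraries. It was not called, with a wide error (log2 fold change -0.15, SE 0.468, edgeR adjusted p = 0.806).

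The inhibitory receptor genes were low, and 5 of 15 were tested. Glycine receptor alpha subunits form the chloride channel of spinal inhibition, and here glra2 and glra3 moved in opposite directions. glra3 had 0.278, 0.24, 0.204, 0.599 and 0.335 CPM in mutant libraries, against 1.75, 1.57, 1.71, 2.55 and 0.983 CPM in wild-type libraries, without overlap (log2 fold change -2.33, SE 0.293, edgeR adjusted p = 1.15e-04). glra2 had 2.61, 2.97, 2.5, 3.04 and 2.29 CPM in mutant libraries, against 1.49, 1.76, 1.71, 1.58 and 1.88 CPM in wild-type libraries, also without overlap (log2 fold change 0.67, SE 0.0925, edgeR adjusted p = 0.0062).

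Of 5 tested P2X receptors, p2rx5 alone was called lower, where 21.6% of all tested genes were lower. It had 5.34, 5.13, 5.81, 7.05 and 5.3 CPM in mutant libraries, against 13.7, 16.2, 11.9, 13.5 and 11.7 CPM in wild-type libraries. The wild-type values lay far above all mutant values (log2 fold change -1.23, SE 0.116, edgeR adjusted p = 4.05e-06). p2rx3a, the type of sensory neurons, was named after its values were seen. It averaged 7.08 ± 2.3 CPM in mutant and 5.31 ± 1.61 CPM in wild-type libraries and was not called (edgeR adjusted p = 0.162). p2rx7 averaged 9.32 ± 1.45 CPM in mutant and 10.9 ± 1.18 CPM in wild-type libraries (edgeR adjusted p = 0.149). The sum over the class was 23.4 to 26.1 CPM in mutant libraries, against 30.7 to 35.6 CPM in wild-type libraries.

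Neuronal markers were lower in the mutant for 5 of 10 tested and higher for 1, and none was at 0. Their summed level was 178 to 196 CPM in mutant libraries, against 211 to 229 CPM in wild-type libraries. Channel genes known from neurons were not counted as a list. As examples among the called genes, scn8aa, trpa1a and glra3 were lower, while cacna1ba, gria2a and glra2 were higher. The direction of glra3 was favoured by the filter, which it passed through wild-type libraries alone. The part of neuronal content in these changes was not tested. Markers of macrophages and other myeloid cells summed to 15.6 to 20.1 CPM in mutant libraries, against 26.3 to 40.3 CPM in wild-type libraries, with 1 of 4 tested higher and 1 lower. The lower sum came from lcp1 alone (4.85 CPM in mutant against 23.3 CPM in wild-type libraries on average). All others averaged higher in the mutant: spi1b (called, 10.7 against 7.86 CPM), mpeg1.1 (0.958 against 0.922), mpx (0.576 against 0.439) and the untested csf1ra (0.689 against 0.119). Notochord markers summed to 516 to 561 CPM in mutant libraries, against 351 to 483 CPM in wild-type libraries, with 2 of 3 higher and 1 lower. Most of that sum was col2a1a (477 CPM in mutant against 366 CPM in wild-type libraries on average). Epidermal markers overlapped in sum, at 32517 to 36252 CPM in mutant and 32273 to 37566 CPM in wild-type libraries (2 of 6 higher, 2 lower). Most of this sum was krt4 (28882 CPM in mutant against 28865 CPM in wild-type libraries on average). The groups were apart for epcam and cldne, which were higher, and for cyt1 and krt8, which were lower. Sums of neural progenitor markers also overlapped, at 770.4 to 902 CPM in mutant and 839 to 1042 CPM in wild-type libraries (1 of 4 higher, 2 lower). None of these markers was at 0, and their part in the changes of the channel genes was not tested.

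Some duplicate copies shifted against each other. For 16 pairs with both copies tested, the log2 ratio of a-copy to b-copy reads was compared between the groups, a comparison added after the gene-wise values were known. This ratio needs no scaling between libraries. It differed for 5 pairs (each exact two-sided permutation p = 0.00794, adjusted over 16 pairs 0.0254). In single genes, the groups were apart for 28.7% of all tested genes, and nothing shows the count to be particular to channel duplicates. For scn12aa over scn12ab it was 3.05 ± 0.37 in mutant and -3.38 ± 2.44 in wild-type libraries, a difference of 6.43 (SE 1.1). Wild-type replicates 2 and 4 had 0 reads of scn12aa, so their ratios are set by the 0.5 reads added, and with 2 reads added the difference was 5.33. For cacna2d2a over cacna2d2b it was 3.98 ± 1.09 in mutant and 1.80 ± 0.18 in wild-type libraries, a difference of 2.18 (SE 0.494). Both of these ratios were tilted towards the a copy in the mutant. scn12aa passed the filter through mutant libraries alone and cacna2d2b through wild-type libraries alone. The filter therefore favoured both shifts, and they are descriptions.

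The ratio of scn8aa to scn8ab was lower, at 0.83 ± 0.62 in mutant and 2.07 ± 0.12 in wild-type libraries (difference -1.25, SE 0.282). The AMPA pair gria3a and gria3b, of which neither copy was called by itself, also shifted towards the b copy, with -0.12 ± 0.78 in mutant and 1.18 ± 0.42 in wild-type libraries (difference -1.30, SE 0.396). Since gria3a passed the filter through wild-type libraries alone and gria3b through mutant libraries alone, the filter favoured this shift, and it is a description. The pair trpc4apa and trpc4apb shifted slightly, with 0.95 ± 0.10 in mutant and 0.66 ± 0.18 in wild-type libraries (difference 0.29, SE 0.0939). The irritant receptor pair trpa1a and trpa1b missed the threshold, with a difference of -0.71 (SE 0.242, exact permutation p = 0.0238, adjusted 0.0635). With 1 library left out, 4 against 5 libraries cannot give an exact permutation p under 0.0159, and with 5 of 16 pairs at that value the adjusted p is 0.0508. So 0 pairs were called without mutant replicate 1, 2, 3 or 4 or wild-type replicate 2, 4 or 5, and 8 without wild-type replicate 1, the added pairs being those of kcnc1a, kcnk5a and trpa1a.

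**Figure D4:**
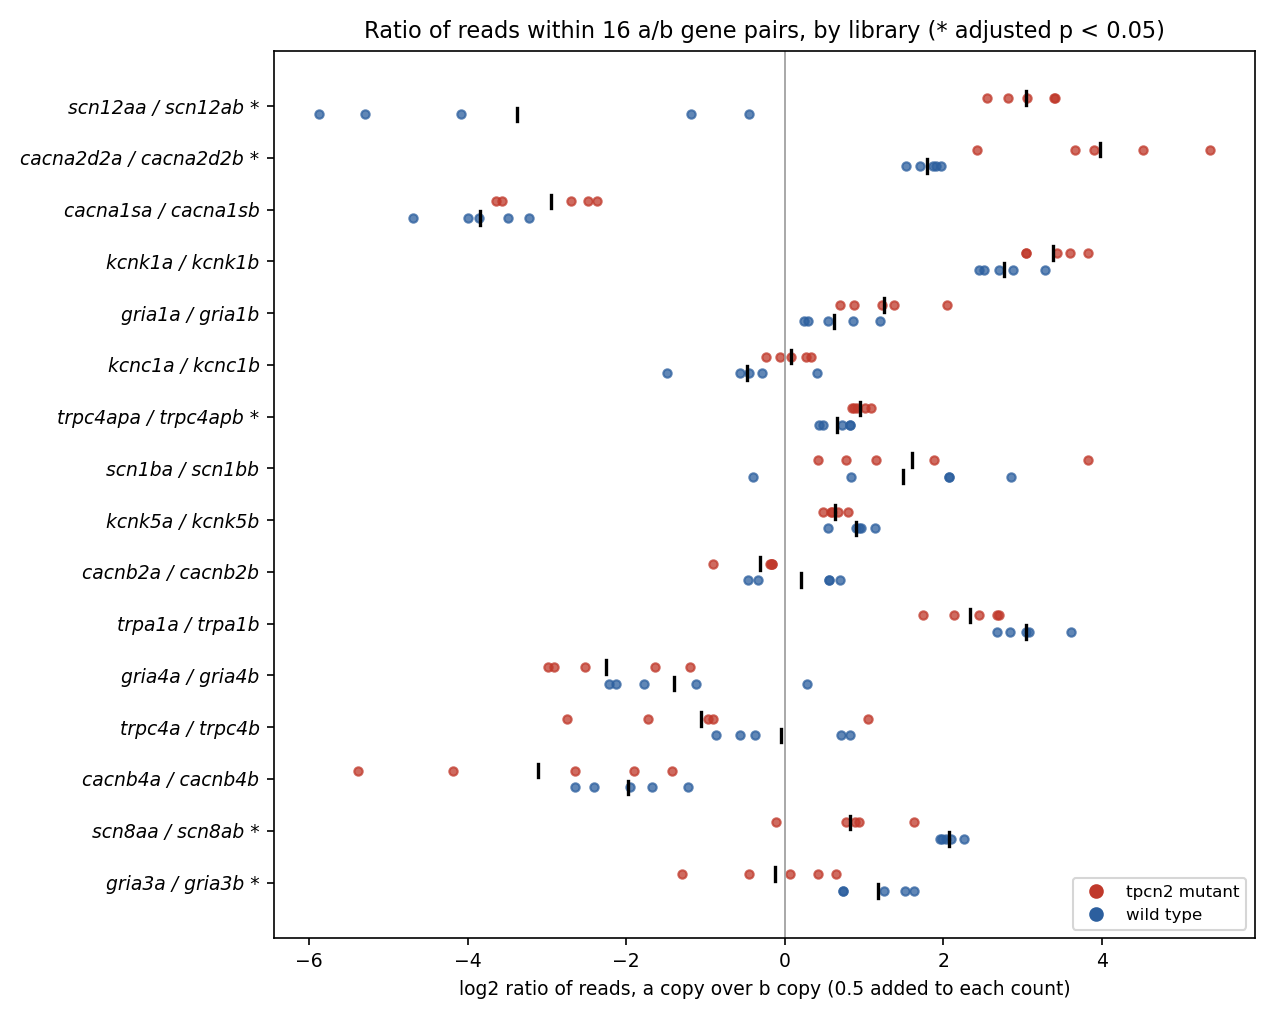
Log2 ratio of reads of the a copy to the b copy in each library for the 16 duplicate pairs (rows), with mutant libraries in red above wild-type libraries in blue and a tick at each mean. The 5 pairs with a star, whose groups do not overlap, are scn12aa/scn12ab, cacna2d2a/cacna2d2b, scn8aa/scn8ab, gria3a/gria3b and trpc4apa/trpc4apb.

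Genes that work with these channels were called at shares to be read against the 20.6% of all tested genes called higher and the 21.6% called lower. Of 18 tested partners and scaffolds, 4 were higher and 4 lower, with a median log2 fold change of 0.01. Among them fgf12b (0.66) was higher and fgf13a (-0.70) and fgf13b (-0.55) were lower, all encoding relatives of fibroblast growth factors that bind sodium channels inside the cell. gphna, the scaffold gephyrin of glycine and GABA-A receptors, was higher by 0.30 on the log2 scale. Of 17 other tested channel genes, 3 were higher and 4 lower. That list held 53 symbols, of which 22 were in the table of gene counts, and tpcn1, tpcn3, itpr1a and ryr1a were among those absent. The other lists were also held in part: 23 of 39 partners and scaffolds and 11 of 18 nicotinic receptors. The same holds for 21 of 28 pumps and chloride transporters and 19 of 22 genes of transmitter synthesis and transport. The acid-sensing sodium channel gene asic4b was lower, at 0.0213 CPM in mutant and 0.851 CPM in wild-type libraries on average, whereas asic1b (log2 fold change 1.99) and asic2 (1.08) were higher. asic4b passed the filter through wild-type libraries alone and asic1b and asic2 through mutant libraries alone, so the filter favoured these directions. tmem175, a lysosomal potassium channel gene, was lower (log2 fold change -1.02).

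Nicotinic acetylcholine receptor genes, which belong to the ligand-gated channels of muscle and nerve but carry other symbols, gave 2 lower calls among 7 tested, where 21.6% of all tested genes were lower. These were chrna1 (log2 fold change -0.79) and chrnd (-0.18), both subunits of the muscle receptor. Of 19 tested ion pumps and chloride transporters, 6 were higher and 4 lower (slc8a2b 1.64 and atp1a1b -0.40 as log2 fold changes). Of 13 tested genes of transmitter synthesis and transport, 3 were higher and 2 lower. The vesicular glutamate transporter gene slc17a7a was higher (log2 fold change 1.54), and chata, the enzyme that makes acetylcholine, was lower (-1.38). The filter favoured these directions as well, since slc8a2b and slc17a7a passed it through mutant libraries alone and chata through wild-type libraries alone.

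The authors' deposited table of mutant against wild type gives an adjusted p for 147 of the 155 channel genes. At the same threshold the authors' deposited table calls 17 higher and 17 lower, where 19.4% and 20.1% of its genes were. Of the 31 genes called here, 30 are called there in the same direction, and cacna2d2b is not, at 0.0557. The authors' deposited table also calls, among others, kcnq1 (log2 fold change there -0.74), trpc7a (-0.72) and trpv1 (-0.74), which the filter on low counts had left untested here. Without the filter, edgeR gave larger log2 fold changes for these genes, -1.84 for kcnq1, -1.76 for trpc7a and -1.79 for trpv1. The deposited fold changes are therefore not on the scale of those given elsewhere here. Counted here, kcnq1 had 19 reads in mutant and 71 in wild-type libraries, and trpc7a had 16 in mutant and 58 in wild-type libraries.

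By gene order in RefSeq (GRCz12tu, used for order alone, since the processing notes name another build), neighbours of the changed channel genes were examined, with 42.2% of all tested genes called as background. Of the 10 nearest tested neighbours of scn12aa, 7 were called (2 higher, 5 lower), each by less than 2-fold. Of those of cacna1ba 4 were called, of gria2a 3 and of glra3 4, again each by less than 2-fold. Near clcnk 4 of 10 were called, and 2 of these were lower by more than 2-fold, plekhm2 (-1.47) and fam131c (-1.73) on the log2 scale. Near p2rx5 4 of 10 were called, among them alkbh2 (log2 fold change -1.68). Near cacnb4a 5 were called, each by less than 2-fold, near kcnh2a 5, among them zgc:154006 (log2 fold change 1.11), and near trpv6 4, among them nat14 (1.02). On chromosome 7, which carries tpcn2, 3 channel genes were tested and none of these was called: kcnc1a, trpm5 and cacnb2a had edgeR adjusted p-values of 0.8, 0.803 and 0.839. kcnq1 lies there too. The filter left it untested, and it was lower without the filter (log2 fold change -1.84, edgeR adjusted p = 0.0261), by DESeq2 (-1.88, adjusted p = 0.0168) and in the authors' deposited table (adjusted p = 0.0167). All of these rest on the same few reads, and the groups overlapped: wild-type replicate 1 had 0.0532 CPM, and mutant libraries had 0.051 to 0.368 CPM. Also untested on this chromosome, trpm1a averaged 0.509 CPM in mutant and 0.276 CPM in wild-type libraries, with overlap.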

How the data were processed

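RNA of whole embryos was sequenced from 5 tpcn2 mutant and 5 wild-type samples, and groups were taken from the labels. Raw counts for each gene symbol, whole numbers by their values, make up the first deposited table. Per the submitters' processing notes, cutadapt 3.4, STAR 2.7 and DESeq2 1.30.0 were used with the builds danRer10 and mm10, with no role given. The sources used here do not give the counting program, annotation or strand setting, so reads of overlapping antisense genes cannot be told apart. A second deposited table holds, per the file headers, the authors' log2 fold changes, p-values, a score (the test statistic) and a signal (mean of counts divided by size factors). The score and the signal were not used.

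Counts were filtered with filterByExpr (minimum count 10), scaled by TMM and tested with edgeR 4.0.16 in R 4.3.3 (quasi-likelihood, genotype as the single term, Benjamini-Hochberg over all tested genes, threshold 0.05). DESeq2 1.42.0, other scalings and filters, a replicate block and leaving out each library were tried as alternatives. The pipeline was tested on simulated data. Ratios of duplicate copies (0.5 reads added) were compared by exact permutation with scipy 1.17.1 in Python 3.11.15, a test chosen after the data were examined. No 2 libraries of the same group agreed within sampling noise, and libraries of different groups were not compared in this way. The chi-square of counts per gene between 2 libraries was 5.74 to 9.07 among mutant libraries and 8.53 to 29.9 among wild-type libraries. Wild-type libraries thus differed more from each other.

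The channel genes, their classes and the other gene lists were chosen with earlier results of these data known. Named genes were those called with groups apart and at least 2-fold changed, per class up to 2 in each direction, and per class the gene with the highest CPM. Reads were not counted by molecular identifiers. All 155 symbols matched RefSeq. Some genes are counted but not reported here by name. Sequences and gene lengths were not used here.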

Additional observations from a re-analysis of the deposited data

Results flagged for a closer look

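For 37 genes, which do not cover every channel gene named above, each group of 5 libraries was examined for a library that stood far from the others. In trpv6, the epithelial calcium channel gene, mutant replicate 3 had 1.68 CPM while the remaining mutant libraries lay between 0.875 and 0.958 CPM, and its gap to the nearest of them was 0.897 of the group's range. Of 74 groups (37 genes) 1 stood out in this way, and chance alone gives about 1 in 20. The call of trpv6 held without that library.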

How the results depend on the processing

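The count of channel genes higher in the mutant was 17, and 12 to 18 with 1 library left out. The count lower was 14, and 11 to 16 with 1 library left out. Without a filter 16 were higher and 17 lower, by DESeq2 17 and 17, and over genes averaging 1 CPM or more 17 and 10. With library sizes alone 16 were higher and 14 lower, and without the TRPC4-associated proteins, an alternative chosen after seeing the data, 16 and 14. Of the genes called, 9 of 17 higher and 11 of 14 lower held in all 10 fits with a library left out. The median log2 fold change of the tested channel genes, 0.02, had no stable sign: it was -0.05 without a filter, 0.09 over genes averaging 1 CPM or more, -0.06 by DESeq2, and -0.07 to 0.04 with 1 library left out. Over all genes, 2146 to 2611 were higher and 2317 to 2701 lower with 1 library left out, and tpcn2 ranged from -2.71 to -2.49. Uncalled genes whose sign turned with 1 library left out included kcnk6 (-0.04 to 0.27), grin1a (-0.54 to 0.10) and kcnma1a (-0.08 to 0.09). With a replicate block 16 were higher and 13 lower, with cacna2d2b, kcnh1a and trpm7 lost and glrbb gained. The numbers do not pair the libraries: same-numbered libraries had correlations of -0.0615 to 0.0745 in their deviations, and 2 of 5 matched their own number best. For the duplicate pairs, 5 were called, 6 with 2 reads added, and 0 to 8 with 1 library left out, where the log2 ratio of scn1ba to scn1bb differed by -0.43 to 0.46. Genes that did not reach about 0.508 CPM in 5 libraries were too shallow to test.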
